A study of Mus musculus with 3 samples.

Results

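The 38 genes described here are 26 immediate early genes and 12 heat shock genes, out of 31053 genes counted in leukocytes from the mouse stomach wall. They were chosen as 2 named lists, with earlier results of these data known. Each was followed as CPM, its UMIs scaled to the same total in each class and library, across cell classes that were gated on 100 other marker genes. The study sequenced RNA of single cells from the gastric muscle of female C57bl/6 mice, to describe its macrophages. All 3 libraries belong to 1 group, NonDiabetic, and the ages of the mice are not in the labels. The muscle was digested with 1.3 mg/mL collagenase type II for 2 h at 37 °C before CD45+ cells (leukocytes) were sorted, and every cell described here went through that step. The diabetic mice named in the study's title were not analysed here.

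Immediate early genes are transcribed within minutes of a stimulus, without new protein synthesis, by factors that already sit in the cell. Many encode transcription factors (the Fos, Jun, Egr and Klf families), and others encode proteins that end the response, such as the dual-specificity phosphatases of the Dusp family and the RNA-decay proteins of the Zfp36 family. Heat shock genes encode chaperones that hold and refold proteins. Their induction runs mostly through the factor Hsf1, whereas Hspa5 is the chaperone of the endoplasmic reticulum and follows the unfolded protein response. Both kinds of gene are known to respond to warm enzymatic digestion of tissue, so their RNA in sorted cells need not be that of the intact tissue.

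Replicates 1, 2 and 3 held 881, 2839 and 2015 barcodes with 6777422, 13336484 and 11017170 unique molecular identifiers (UMIs). Cells with at least 1000 UMIs and at most 15% mitochondrial UMIs numbered 522, 1692 and 1216, with medians of 9182.5, 5699.5 and 7501.5 UMIs. A marker gate placed 473, 1438 and 1101 of them in a class. Replicates 2 and 3 shared 33 barcode sequences, of which 3 were kept in both libraries, and replicate 1 shared 1 with replicate 3, kept in both, and none with replicate 2. The library with the highest value of each sum was the same without the shared barcodes. Nothing in the labels ties the libraries to separate animals, so the p-values cover differences between these 3 libraries only, and those may be technical.

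Group 2 innate lymphoid cells (ILC2, lymphocytes that secrete type 2 cytokines) numbered 108, 170 and 143 in replicates 1, 2 and 3. Type 2 conventional dendritic cells (cDC2) numbered 64, 85 and 96, and type 1 (cDC1) 6, 24 and 29. Macrophages without a UMI of Lyve1, a hyaluronan receptor of some resident macrophages, numbered 134, 553 and 363, and those with one (Lyve1+) 86, 498 and 409. The 9 ILC2 markers summed to 5098 to 9064 CPM in ILC2, against 131 to 428 CPM in macrophages. The 8 macrophage markers summed to 56.0 to 121 CPM in ILC2, against 9861 to 16858 CPM in macrophages, so RNA of the other class was low but not absent. Median depth of Lyve1- macrophages was 9352, 2823 and 7829 UMIs, against 5653, 6615.5 and 8018 UMIs in Lyve1+ macrophages, and a shallow cell can miss its Lyve1 molecule. Lymphocytes with T or NK markers (14, 21 and 11 cells), fibroblasts (45, 10 and 14) and mast cells (8, 21 and 18) were too few for the main test. They were compared only where a class had at least 10 cells in a library, a limit chosen after values were seen.

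On average over libraries, the immediate early genes together made up about as much RNA in ILC2 as in Lyve1+ macrophages. Their summed level averaged 19561 ± 2813 CPM in ILC2, 14545 ± 5660 CPM in cDC2, 15626.5 ± 4505 CPM in Lyve1- macrophages and 21615 ± 8446 CPM in Lyve1+ macrophages (SD, n = 3 each). Within libraries the order changed. ILC2 had less than Lyve1+ macrophages in replicate 1 (22720 against 31361 CPM), and more in replicates 2 (18641 against 16428 CPM) and 3 (17324 against 17055.5 CPM). Lymphocytes of the T or NK gate had 8335, 9065 and 7969 CPM in replicates 1, 2 and 3, below every ILC2 profile. In cDC1 it was 9748 and 8411 CPM in replicates 2 and 3.

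The summed heat shock genes varied more between libraries than between these classes. Their summed level averaged 23291 ± 7530 CPM in ILC2, 25413 ± 11737 CPM in cDC2, 25212 ± 6836 CPM in Lyve1- macrophages and 28906 ± 8452 CPM in Lyve1+ macrophages (SD, n = 3 each), and these ranges overlap. Among classes with at least 10 cells, fibroblasts and 1 profile of B cells (9290 CPM) stood lowest; fibroblasts had sums of 7854, 12529 and 10501 CPM in replicates 1, 2 and 3, and T or NK cells had 9106, 13196 and 20301 CPM. Mast cells, with 26075 and 58438 CPM in replicates 2 and 3, stood far apart from each other. Lyve1- and Lyve1+ macrophages took 39.2% to 48.7% and 40.5% to 46.2% of this sum from the paralogs Hspa1a and Hspa1b. Without that pair the heat shock sum was 14652 ± 2646 CPM in ILC2, 15823 ± 4743 CPM in cDC2, 14053 ± 2960 CPM in Lyve1- macrophages and 16256 ± 3931 CPM in Lyve1+ macrophages (SD, n = 3 each).

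**Figure D1:**
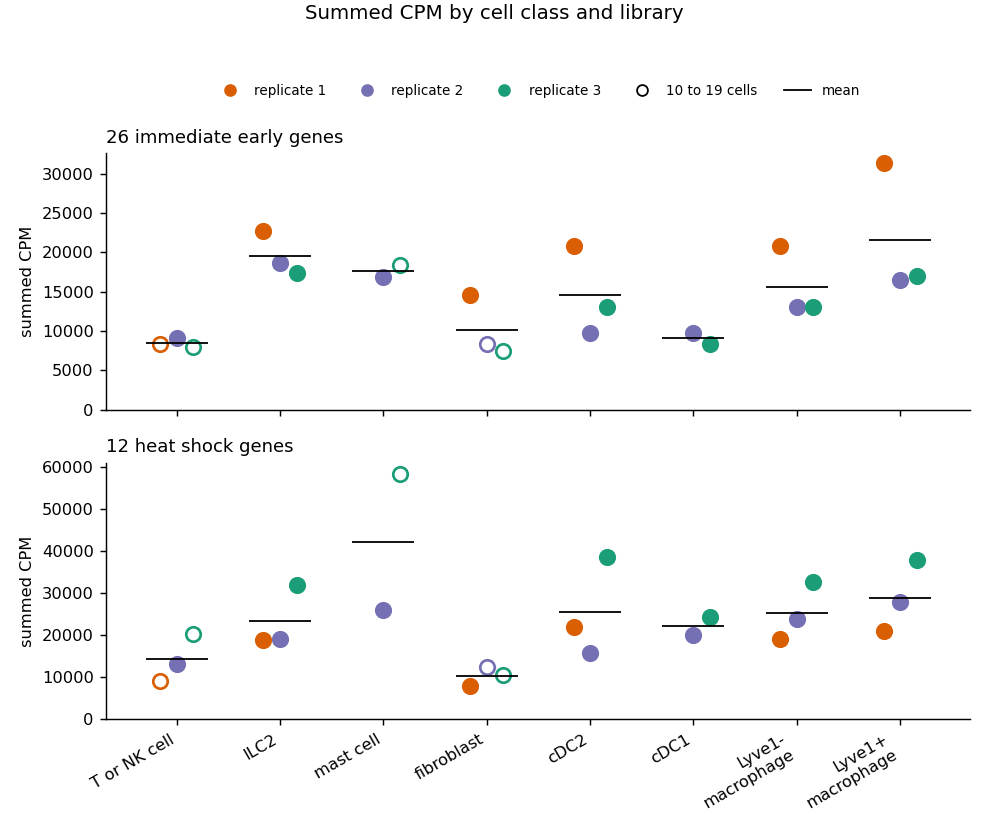
Summed CPM of the 26 immediate early genes (top) and the 12 heat shock genes (bottom) by cell class, 1 point per library, with the mean as a line; open points have 10 to 19 cells. In ILC2, cDC2 and both macrophage classes replicate 1 is the highest point for the immediate early genes and replicate 3 the highest for the heat shock genes.

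The same split between libraries appeared in every class with at least 20 cells in all 3 libraries. The immediate early sum was highest in replicate 1 in 4 of 4 classes: in ILC2 it was 22720, 18641 and 17324 CPM in replicates 1, 2 and 3, and in Lyve1+ macrophages 31361, 16428 and 17055 CPM. The heat shock sum was highest in replicate 3 in 4 of 4 classes: in ILC2 it was 18910, 18977 and 31985 CPM, and in Lyve1+ macrophages 21064, 27795 and 37858 CPM. The highest library of each sum was the same in 4 of 4 classes under each of 8 other ways of selecting, gating, thinning or scaling the cells. In smaller classes the split was incomplete. Replicate 2 was highest for the immediate early sum of T or NK cells (9065 CPM) and the heat shock sum of fibroblasts (12529 CPM). The heat shock sum of T or NK cells was highest in replicate 3, and the immediate early sum of fibroblasts in replicate 1. Of single genes, 12 of 26 immediate early genes were highest in replicate 1 in all 4 classes, against 21.3% of all 9868 genes tested. Of the heat shock genes, 9 of 12 were highest in replicate 3 in all 4 classes, against 4.11% of all genes. No heat shock gene was highest in replicate 1 in all 4, and no immediate early gene in replicate 3. Of the heat shock genes 4 were lowest in replicate 1 in all 4 classes, against 4.87% of all genes, and Atf4, Dusp5 and Hspa5 were lowest in replicate 3, against 4.97%. Dusp2, Dusp5 and Ier3 were highest in replicate 2, against 2.03%, and Egr1, Fos and Jun lowest there, against 10.8%. The 4 classes of 1 library share its digestion, sort and capture, so they are not independent, and animal, handling and library cannot be told apart.

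On the log2(CPM + 10) scale, averaged over the 4 classes, the immediate early genes stood a median of 0.72 higher in replicate 1 than in the mean of replicates 2 and 3, against 0.18 over all genes. Zfp36 (1.65), Dusp1 (1.37) and Rgs2 (1.28) lay farthest, and 3 genes, Dusp2 (-0.60), Ier3 (-0.24) and Btg1 (-0.03), lay below 0. The heat shock genes stood a median of 0.84 higher in replicate 3 than in the mean of replicates 1 and 2, against -0.03 over all genes. Hspb1 (1.42), Hspa1a (1.25) and Hspa1b (1.12) lay farthest, and Hspa5 (-0.35) was the 1 of 12 below 0. Jun stood highest of the immediate early genes in replicate 3, by 0.81, beside 0.59 in replicate 1, and Zfp36 lowest, by -1.05.

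**Figure D2:**
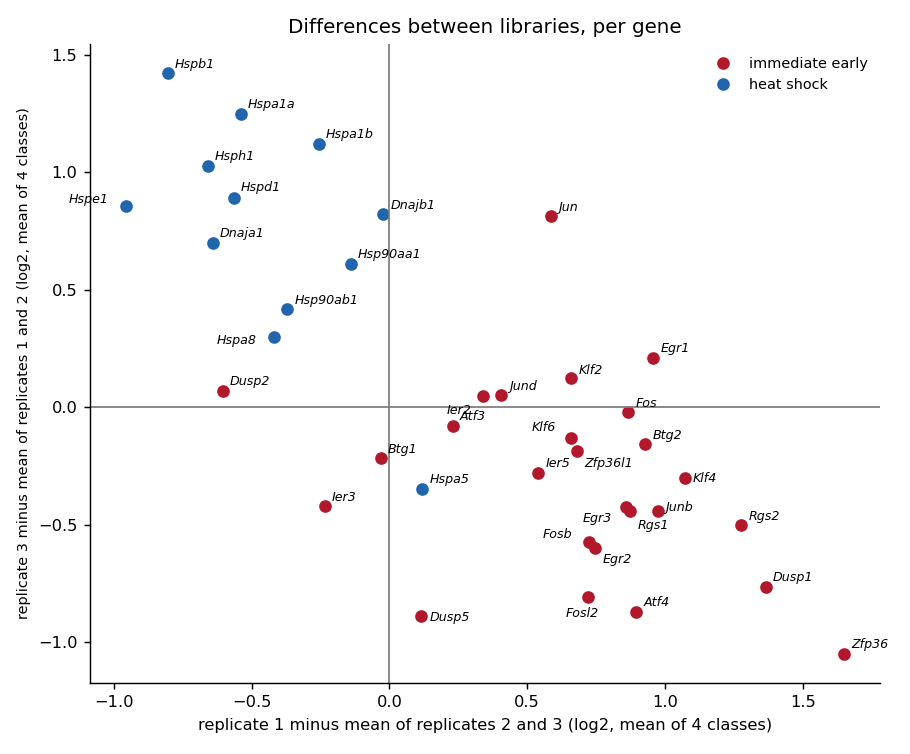
Difference of replicate 1 from the other libraries (horizontal) against that of replicate 3 (vertical), in log2(CPM + 10) averaged over ILC2, cDC2 and both macrophage classes, 1 point per gene. The axes share libraries and so are not independent. Of the heat shock genes, 11 of 12 lie above 0 on the vertical axis, against 4292 of all 9868 genes tested. Of the immediate early genes, 23 of 26 lie to the right of 0, against 7144 of all 9868, so most genes lie on that side.

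Which genes differed by class more than by library was read from mean squares, as a description with no p-value. The layout was two-way, 4 classes by 3 libraries. Class means are weighted by 3 libraries and library means by 4 classes, so a ratio of 1 is not an equal spread of means. Junb (ratio 0.972) and Jun (0.838), among others, fell under 1 with the wider range between class means. Their log2 ranges were 1.51 and 1.96 between classes, and 1.01 and 1.47 between libraries. The class mean square was the larger in 18 of 26 immediate early genes, with a median ratio of class to library of 1.96. Over all genes tested it was the larger in 69.2%, with a median ratio of 2.43, so the immediate early share was that of all genes. Among the 1477 genes with a mean of at least 100 CPM, a limit chosen after values were seen and met by all immediate early genes but Dusp2, Egr2 and Egr3, it was the larger in 77.9%, with a median ratio of 4.00. It was the larger in 3 of 12 heat shock genes (Hspb1, Hspa5 and Dnajb1), with a median ratio of 0.524. The heat shock count rested on replicate 3: without it the class mean square was the larger in 9 of 12, against 61.0% of all genes, and without replicate 1 or 2 in 3 of 12 each. The immediate early count was 23, 16 and 14 of 26 without replicates 1, 2 and 3, against 78.9%, 65.2% and 61.0% of all genes. As single quantities, the immediate early sum had a ratio of class to library of 0.344 and the heat shock sum 0.0702.

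**Figure D3:**
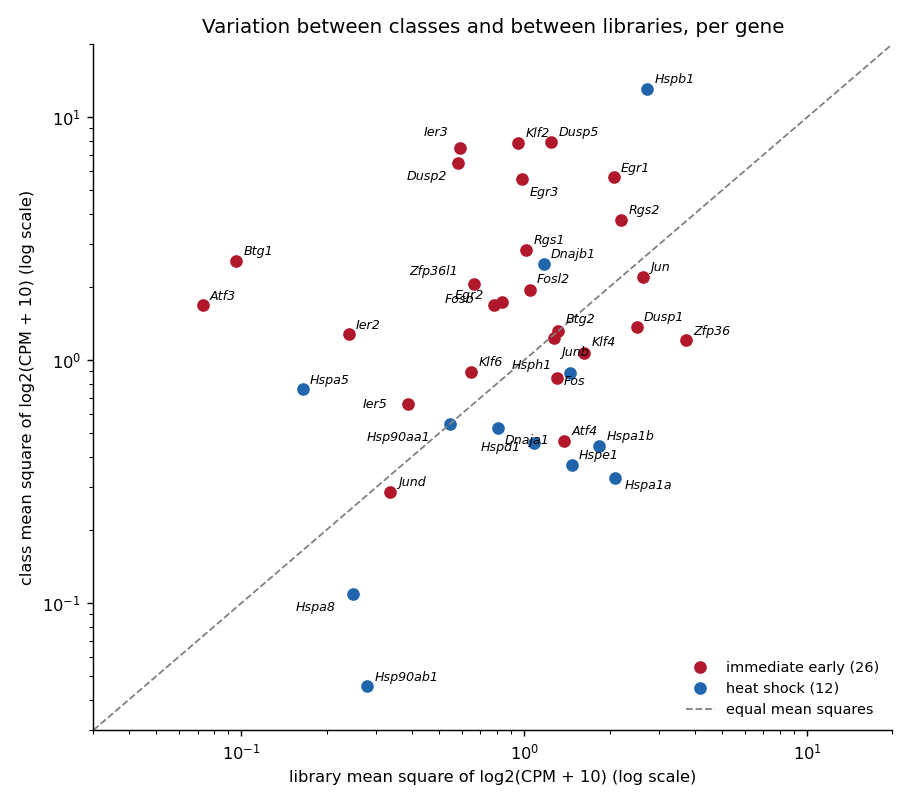
Mean square between classes (vertical, log scale) against mean square between libraries (horizontal, log scale) of log2(CPM + 10) for each gene, over 4 classes and 3 libraries. Of the 26 immediate early genes 18 lie above the dashed line of equal mean squares, and of the 12 heat shock genes 3.

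By the joint test of 5 classes with the library as a block (edgeR's quasi-likelihood test, Benjamini-Hochberg adjustment over 9868 genes), 25 of 26 immediate early and 10 of 12 heat shock genes differed between classes, against 67.9% of all genes. The exceptions were Jund (adjusted p = 0.0766), Hspa1a (adjusted p = 0.142) and Hsp90ab1 (adjusted p = 0.0744). Without the library block, 2 of the 12 heat shock genes passed, and the immediate early count was 22 to 26 over all alternatives. The share of all genes without the block is not given here, so that drop cannot be called particular to heat shock genes. Classes were gated on markers from the same cells, so genes that follow those markers have p-values that are too small, although no marker is a member.

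ILC2 and macrophages carried different members of the same families. Against the mean of both macrophage classes, 12 immediate early genes were higher and 12 lower in ILC2, and 3 heat shock genes were higher and 5 lower. Together that is 15 of 38 higher, against 26.3% of all genes, and 17 of 38 lower, against 30.6%, or 32 of 38 in either direction, against 56.9%. Against the mean of all other classes, 29 of 38 differed in ILC2, against 50.2% of all genes. The median log2 fold change was 0.07 over the immediate early genes and -0.36 over the heat shock genes, against -0.06 over all genes.

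Among the subunits of AP-1, the dimer of Fos and Jun proteins, Junb, Fosb and Fosl2 were higher in ILC2 and Jun was lower. Junb had 4877, 4098 and 3743 CPM in ILC2 in replicates 1, 2 and 3, against 3063, 1624 and 1583 CPM in Lyve1- macrophages and 4844, 1804 and 2017 CPM in Lyve1+ macrophages. The ILC2 value was the highest within each library, and the log2 fold change was 1.12 ± 0.16 (SE, edgeR adjusted p = 4.42e-06). Fosl2 averaged 701 ± 224 CPM in ILC2, against 224 ± 72.8 CPM in Lyve1- and 200 ± 73.0 CPM in Lyve1+ macrophages (SD, n = 3 each). Jun had 999, 427 and 1090 CPM in ILC2, against 1561, 769 and 1652 CPM in Lyve1- macrophages and 2160, 1744 and 3035 CPM in Lyve1+ macrophages. It was lowest in replicate 2 in all 3 classes, and lower in ILC2 within each library (log2 fold change -0.94 ± 0.25 SE, edgeR adjusted p = 0.00249). Jund, which many cells carry without a stimulus, had 1872, 1941 and 1905 CPM in ILC2, against 1744, 1294 and 1430 CPM in Lyve1- and 4583, 1581 and 2164 CPM in Lyve1+ macrophages, and did not pass (0.18 ± 0.20, edgeR adjusted p = 0.463). Fos passed narrowly (0.45 ± 0.18, edgeR adjusted p = 0.0423), and that call was lost under 8 of 16 alternative fits, among them those without replicate 2 (0.22, adjusted p = 0.36) and without replicate 3 (0.46, adjusted p = 0.15).

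The Egr zinc-finger factors split in the same way. Egr3 averaged 180 ± 66.2 CPM in ILC2, against 23.0 ± 16.4 CPM in Lyve1- and 12.7 ± 5.76 CPM in Lyve1+ macrophages (SD, n = 3 each), a log2 fold change of 3.55 ± 0.22 (SE, edgeR adjusted p = 1.16e-11). Egr1 averaged 51.3 ± 10.1 CPM in ILC2, against 236 ± 134 and 427 ± 208 CPM in Lyve1- and Lyve1+ macrophages, a log2 fold change of -2.37 ± 0.32 (SE, edgeR adjusted p = 1.69e-06). Egr2 was also lower in ILC2, by a log2 fold change of -1.91 ± 0.36.

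Of the phosphatases that switch off MAP kinases, Dusp5 was higher in ILC2, and Dusp1 and Dusp2 were lower. Dusp5 averaged 495 ± 142 CPM in ILC2, against 69.4 ± 32.9 CPM in Lyve1- and 35.3 ± 17.5 CPM in Lyve1+ macrophages (SD, n = 3 each), a log2 fold change of 3.67 ± 0.18 (SE, edgeR adjusted p = 1.89e-13). Dusp2 had 0.934, 5.45 and 2.21 CPM in ILC2 in replicates 1, 2 and 3, which are 1, 6 and 2 UMIs, against 66.0, 124 and 98.4 CPM in Lyve1- and 24.7, 34.2 and 29.2 CPM in Lyve1+ macrophages. The 3 ranges do not overlap, and the log2 fold change was -3.91 ± 0.34 (SE, edgeR adjusted p = 2.21e-09). In cDC2 Dusp2 had 55.2, 158 and 116 CPM, and in lymphocytes of the T or NK gate 89.6, 173 and 45.4 CPM. Dusp1 had 746, 349 and 492 CPM in ILC2, against 2194, 1005 and 684 CPM in Lyve1- and 3522, 1202 and 867 CPM in Lyve1+ macrophages. Replicate 1 was the highest in all 3 classes, and within each library ILC2 was lowest (log2 fold change -1.19 ± 0.18 SE, edgeR adjusted p = 5.4e-06).

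The RNA-decay genes showed the same contrast. Zfp36, which encodes tristetraprolin, had 1132, 439 and 375 CPM in ILC2 in replicates 1, 2 and 3, against 1839, 908 and 605 CPM in Lyve1- and 3099, 1521 and 863 CPM in Lyve1+ macrophages. It was lower in ILC2 within each library (log2 fold change -0.96 ± 0.19 SE, edgeR adjusted p = 0.000151), yet it had the smallest ratio of class to library of the immediate early genes, 0.324. Its relative Zfp36l1 averaged 1495 ± 552 CPM in ILC2, against 543 ± 122 CPM in Lyve1- and 924 ± 144 CPM in Lyve1+ macrophages (SD, n = 3 each), and was higher in ILC2 (1.22 ± 0.17). Btg1, an antiproliferative gene known from lymphocytes, had the largest ratio of class to library, 26.7. It had 1987, 2628 and 2434 CPM in ILC2, against 1129, 1189 and 896 CPM in Lyve1- and 574, 565 and 424 CPM in Lyve1+ macrophages. None of the 3 ranges overlap, and the log2 fold change was 1.86 ± 0.12 (SE, edgeR adjusted p = 2.13e-11). Its paralog Btg2 and the G-protein regulators Rgs1 and Rgs2 were higher in ILC2 as well, Rgs2 by 2.37 ± 0.22 on the log2 scale.

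Genes lower in ILC2 included Atf3, Ier3 and Klf2. Atf3, a stress-responsive repressor of inflammatory genes, had 277, 399 and 381 CPM in ILC2 in replicates 1, 2 and 3, against 1040, 1012 and 847 CPM in Lyve1- and 1100, 1223 and 964 CPM in Lyve1+ macrophages. Its ratio of class to library was 23.0, and the log2 fold change was -1.32 ± 0.23 (SE, edgeR adjusted p = 3.63e-05). In cDC2 Atf3 ranged widely, with 1633, 517 and 946 CPM. Ier3, a regulator of cell survival, had 62.6, 98.1 and 64.0 CPM in ILC2, against 459, 942 and 477 CPM in Lyve1- and 1016, 1453 and 671 CPM in Lyve1+ macrophages. The ILC2 values lay far below both macrophage ranges (log2 fold change -3.20 ± 0.18 SE, edgeR adjusted p = 1.2e-12). Klf2, a factor of quiescent lymphocytes and of endothelium, had 39.2, 16.4 and 35.3 CPM in ILC2, against 305, 120 and 190 CPM in Lyve1- and 1011, 271 and 532 CPM in Lyve1+ macrophages (-3.30 ± 0.28 SE, edgeR adjusted p = 1.5e-09). Atf4, a factor of the integrated stress response, had 263, 233 and 134 CPM in ILC2, against 416, 242 and 161 CPM in Lyve1- and 731, 346 and 248 CPM in Lyve1+ macrophages. It was lowest in replicate 3 in each class, and its call (-0.45 ± 0.15 SE, edgeR adjusted p = 0.0169) was lost without replicate 1 (-0.15, adjusted p = 0.38) and without replicate 3 (-0.49, adjusted p = 0.082).

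The other immediate early genes, except Klf4, followed 1 of these directions. Higher in ILC2 were Ier2 (1.65 ± 0.17), a nuclear regulator of motility, Fosb (1.80 ± 0.15), Btg2 (1.65 ± 0.19) and Rgs1 (1.33 ± 0.19), as log2 fold changes with SE. Lower were Klf6 (-0.89 ± 0.18) and Ier5 (-0.71 ± 0.18), of which Ier5 had 255, 293 and 289 CPM in ILC2 in replicates 1, 2 and 3, against 711, 369 and 402 CPM in Lyve1- and 896, 472 and 524 CPM in Lyve1+ macrophages. Klf4 did not pass (-0.04 ± 0.23, edgeR adjusted p = 0.886), and its ILC2 values of 476, 277 and 216 CPM in replicates 1, 2 and 3 stood against 413, 166 and 214 CPM in Lyve1- and 648, 429 and 536 CPM in Lyve1+ macrophages.

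The 2 dendritic classes were each compared with the mean of the other classes, and the difference between them was not tested. cDC1 entered with replicates 2 and 3 only, as it had 6 cells in replicate 1. In these comparisons, 10 of 38 genes were higher in cDC2 (against 18.9% of all genes) and 6 lower (against 7.45%), and 4 were higher in cDC1 (against 10.9%) and 12 lower (against 8.06%). Hspb1 was higher in cDC2 (2.12 ± 0.33 SE, edgeR adjusted p = 3.87e-05) and lower in cDC1 (-4.36 ± 0.72 SE, edgeR adjusted p = 0.000122). Fosl2 was likewise higher in cDC2 (0.93 ± 0.16) and lower in cDC1 (-2.25 ± 0.28), and Dusp2 was higher in both (1.98 ± 0.17 and 1.78 ± 0.24).

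**Figure D4:**
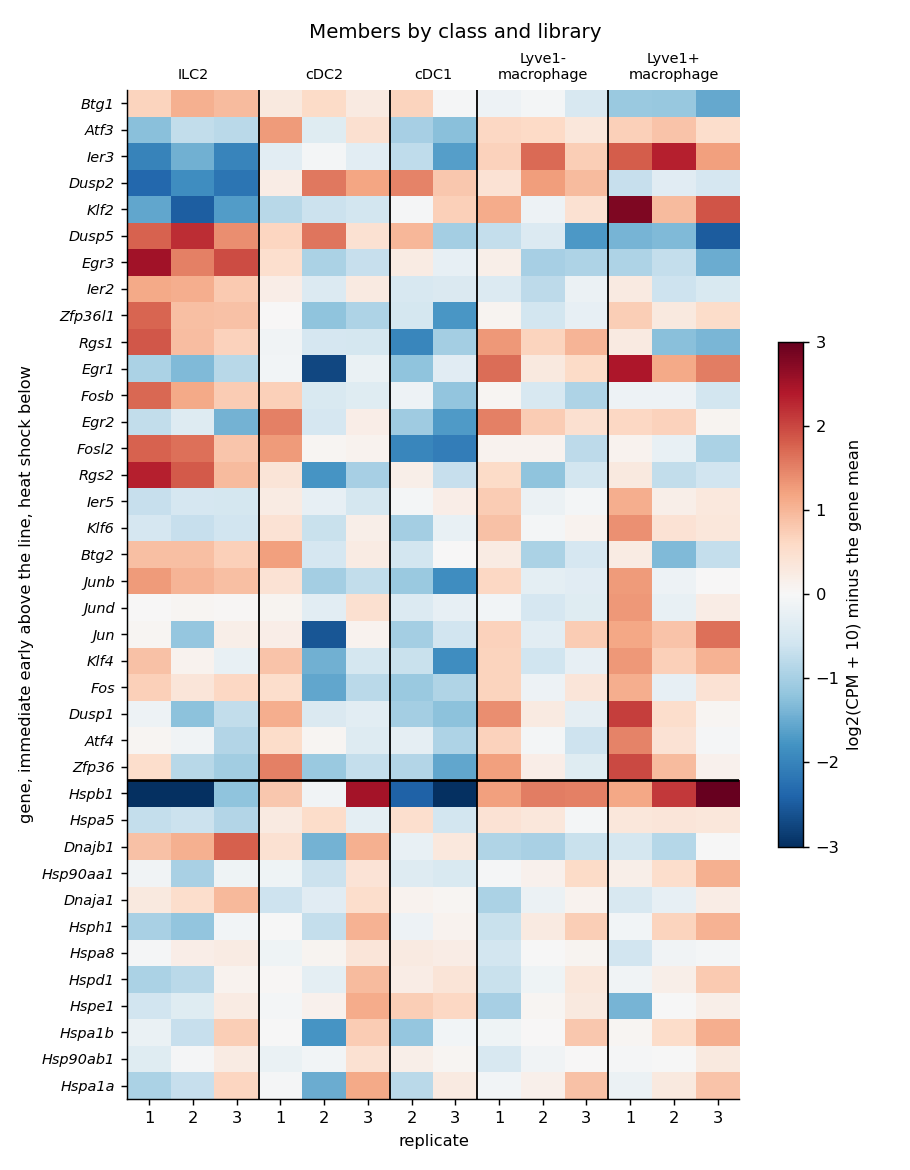
log2(CPM + 10) minus the gene's mean for each gene (rows, ordered by ratio of class to library within each group) and each class and library with at least 20 cells (columns), with colours capped at 3 either way. Btg1, with a ratio of 26.7, changes between classes, and Hspa1a, with a ratio of 0.156, changes between libraries and is highest in replicate 3 in each class with 3 libraries.

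Among the heat shock genes, the largest differences between ILC2 and macrophages ran in opposite directions. Hspb1, a small heat shock protein that binds unfolded proteins and actin, had 7.47, 9.09 and 64.0 CPM in ILC2 in replicates 1, 2 and 3, against 393, 486 and 475 CPM in Lyve1- and 370, 737 and 1407 CPM in Lyve1+ macrophages. It was low in ILC2 in every library and also in cDC1, with 22.1 and 2.85 CPM in replicates 2 and 3 (ILC2 against macrophages, log2 fold change -4.60 ± 0.44 SE, edgeR adjusted p = 1.21e-08). Dnajb1, the Hsp40 co-chaperone that feeds substrates to Hsp70, had 902, 1030 and 1688 CPM in ILC2, against 255, 243 and 300 CPM in Lyve1- and 331, 261 and 478 CPM in Lyve1+ macrophages. The ranges do not overlap (2.16 ± 0.23 SE, edgeR adjusted p = 4.15e-08). A second Hsp40, Dnaja1, was also higher in ILC2, with 1865, 2196 and 2993 CPM, against 781, 1347 and 1631 CPM in Lyve1- and 1083, 1279 and 1759 CPM in Lyve1+ macrophages (1.06 ± 0.12 SE, edgeR adjusted p = 2.36e-07).

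The Hsp70 family members differed in their pattern. Hspa5 had 532, 562 and 477 CPM in ILC2, against 1199, 1116 and 843 CPM in Lyve1- and 1120, 1138 and 1112 CPM in Lyve1+ macrophages, and was lower in ILC2 (-0.86 ± 0.15 SE, edgeR adjusted p = 3.41e-05). It was the 1 heat shock gene that was lowest in replicate 3 in all 4 classes. Hspa8, the constitutive Hsp70, had 3800, 4439 and 4606 CPM in ILC2, against 2658, 3855 and 4126 CPM in Lyve1- and 2592, 3570 and 3704 CPM in Lyve1+ macrophages. It was higher in ILC2 within each library, by 0.54 ± 0.09 on the log2 scale (SE, edgeR adjusted p = 3.93e-05).

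Hspa1a and Hspa1b, the inducible Hsp70 genes, had the larger mean square for library over all 3 libraries, and the larger one for class without replicate 3. Hspa1a had 2236, 2647 and 6724 CPM in ILC2 in replicates 1, 2 and 3, 4174, 1541 and 9470 CPM in cDC2, 4057, 4824 and 7893 CPM in Lyve1- and 3784, 5310 and 7862 CPM in Lyve1+ macrophages. Replicate 3 was the highest in each class, and the ratio of class to library was 0.156, the smallest of all 38 genes. Hspa1b had 3924, 2796 and 7588 CPM in ILC2, 4522, 1333 and 7728 CPM in cDC2, 4168, 4571 and 7965 CPM in Lyve1- and 4738, 6632 and 9623 CPM in Lyve1+ macrophages. Neither passed between ILC2 and macrophages (edgeR adjusted p = 0.0717 for Hspa1a and 0.271 for Hspa1b). The class call of Hspa1b (adjusted p = 0.0271) was lost under 6 of 16 alternative fits. The 2 copies lie at chr17:34969190-34972156 (Hspa1a) and chr17:34956436-34959238 (Hspa1b) on the minus strand of GRCm38. Their longest transcripts share 58.8% (Hspa1a) and 62.3% (Hspa1b) of 50-base words but 0% within the last 400 bases, where this 3' assay reads. How reads that fit both copies were counted is not given in the sources used here, so the division between them is uncertain.

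Of the Hsp90 genes, the pair that holds signalling proteins in an active fold, 1 passed and 1 did not. Hsp90ab1, the constitutive form, had 2277, 2879 and 3490 CPM in ILC2, against 2110, 2738 and 2979 CPM in Lyve1- and 2884, 2923 and 3598 CPM in Lyve1+ macrophages, ranges that overlap (0.20 ± 0.11 SE, edgeR adjusted p = 0.141). Hsp90aa1, the inducible form, had 2204, 1197 and 2156 CPM in ILC2, against 2293, 2561 and 3495 CPM in Lyve1- and 2664, 3378 and 4941 CPM in Lyve1+ macrophages. It was lower in ILC2 (-0.59 ± 0.16 SE, edgeR adjusted p = 0.00319), a call that was lost without replicate 2 (-0.38, adjusted p = 0.055). The mitochondrial chaperonin pair, Hspd1 and Hspe1, lie head to head on chromosome 1 and overlap on opposite strands. Hspe1 did not pass (0.27 ± 0.16, edgeR adjusted p = 0.16), while Hspd1 was lower in ILC2 (-0.43 ± 0.14, edgeR adjusted p = 0.0136), a call that was lost without replicate 1 and without replicate 2. Hsph1, an Hsp110 that recharges Hsp70, was lower in ILC2 (-0.92 ± 0.20), with 369, 316 and 695 CPM in ILC2 in replicates 1, 2 and 3, against 463, 895 and 1242 CPM in Lyve1- and 692, 1173 and 1538 CPM in Lyve1+ macrophages. Whether counting used strand is not given in the sources used here. Of the 38 genes, 10 overlap a counted gene on the other strand, Jun, Junb, Jund and Zfp36 among them.

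**Figure D5:**
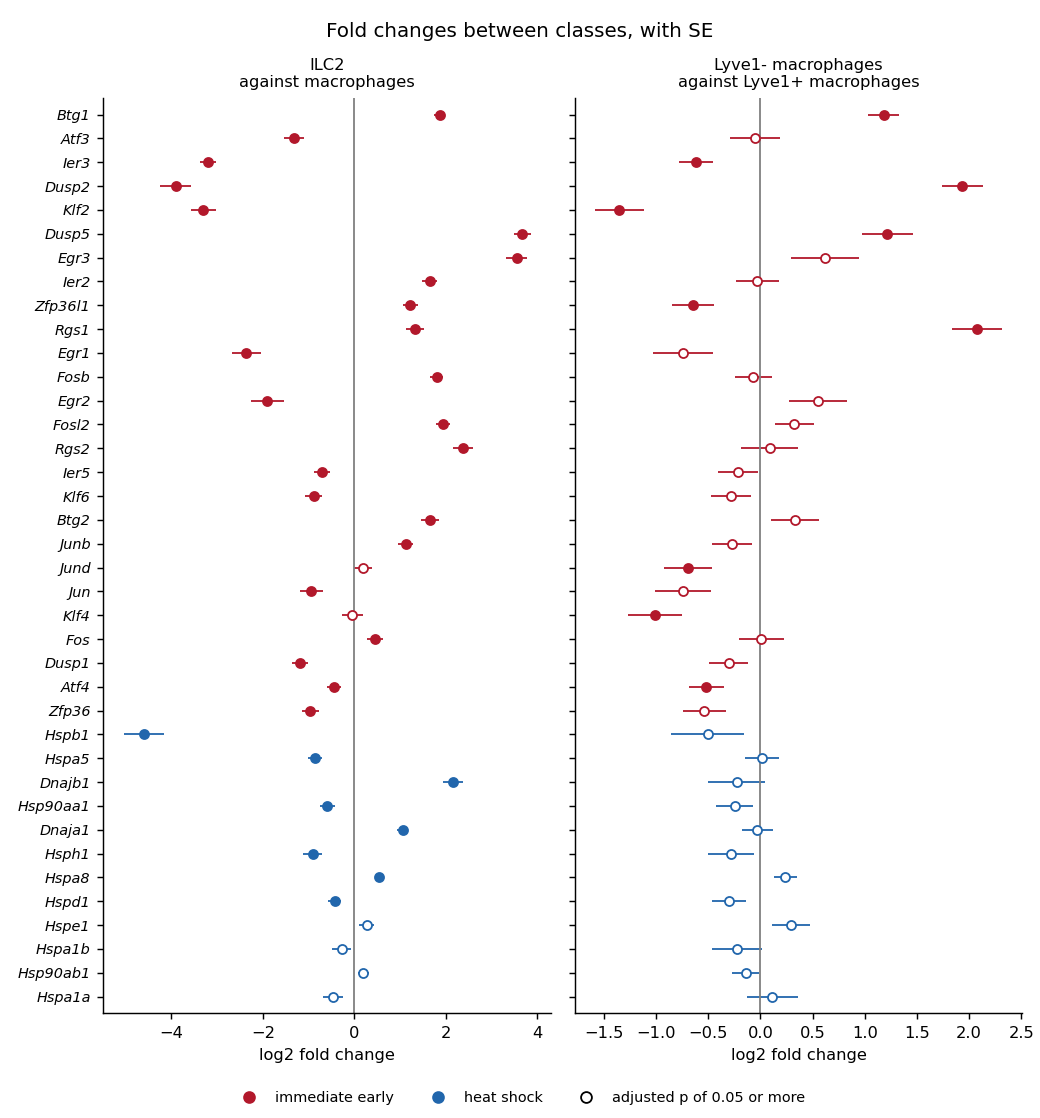
Log2 fold change with SE of ILC2 against macrophages (left) and of Lyve1- against Lyve1+ macrophages (right) for each gene, from edgeR; open points have an adjusted p of 0.05 or more. On the left 15 genes pass above 0 and 17 below; on the right 4 pass above 0 and 6 below, none of them a heat shock gene.

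Promoter letters are described for both groups, and a tie between any motif and the differences between libraries was not tested. RefSeq promoters (GRCm38.p6, 250 bases before to 50 after the start) were at hand for 22 of 26 immediate early and 9 of 12 heat shock genes. These 9 are not the 9 heat shock genes that were highest in replicate 3 in all 4 classes. They include Hspb1 and Hspa5, which were not, and lack Hspa8 and Hsp90ab1, which were. GAANNTTC, the pair of inverted GAA units at the core of the heat shock element, was found on either strand in 7 of 9 heat shock promoters (77.8%), in 2 of 22 immediate early promoters (9.09%) and in 9.04% of 27025 genes with a promoter. A longer element with 1 more GAA unit, 2 bases on, was found in 3 of 9, in 0 of 22 and in 0.662% of all. The 7 include the near-identical Hspa1a and Hspa1b, and both the 7 and the 3 include the head-to-head pair Hspd1 and Hspe1. The 9 promoters are therefore not independent. The CArG box, the site of serum response factor, was found in 3 of 22 immediate early promoters (13.6%), in 0 of 9 heat shock promoters and in 1.81% of all. The cAMP response element TGACGTCA was found in 2 of 22 (9.09%), in 0 of 9 and in 2.03% of all. CCAAT, the letters of a common promoter element, was found in 12 of 22 (54.5%), in 7 of 9 (77.8%) and in 41.1% of all. A match is a description of letters and not a measured site. The 150 bases before the start follow for 6 genes that were picked because they hold a match, 5′ to 3′ on the gene's own strand, with GAANNTTC (heat shock genes) or the CArG box (immediate early genes) in capitals.
Hspa1a (chr17:34972157-34972306, minus strand): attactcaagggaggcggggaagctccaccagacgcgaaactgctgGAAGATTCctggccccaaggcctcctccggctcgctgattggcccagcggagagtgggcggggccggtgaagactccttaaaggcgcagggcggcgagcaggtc
Hspa1b (chr17:34959239-34959388, minus strand): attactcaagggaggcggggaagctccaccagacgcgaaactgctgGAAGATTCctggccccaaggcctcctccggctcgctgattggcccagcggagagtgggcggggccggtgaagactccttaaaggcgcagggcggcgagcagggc
Hspe1 (chr1:55087998-55088147, plus strand): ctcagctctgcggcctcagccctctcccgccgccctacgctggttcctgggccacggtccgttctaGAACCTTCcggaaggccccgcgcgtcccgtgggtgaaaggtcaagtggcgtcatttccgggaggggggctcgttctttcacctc
Hspb1 (chr5:135887769-135887918, plus strand): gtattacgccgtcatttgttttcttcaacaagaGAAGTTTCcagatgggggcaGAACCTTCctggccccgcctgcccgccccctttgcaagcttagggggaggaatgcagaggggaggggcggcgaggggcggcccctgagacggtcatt
Dusp5 (chr19:53528995-53529144, plus strand): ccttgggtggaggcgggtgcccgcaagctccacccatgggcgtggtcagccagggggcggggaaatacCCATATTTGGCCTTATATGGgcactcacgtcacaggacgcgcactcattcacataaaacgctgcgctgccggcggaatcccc
Zfp36 (chr7:28379229-28379378, minus strand): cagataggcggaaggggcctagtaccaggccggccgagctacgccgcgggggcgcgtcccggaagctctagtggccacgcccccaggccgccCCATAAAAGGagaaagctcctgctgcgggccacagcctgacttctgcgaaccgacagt
The windows of Hspa1a and Hspa1b are identical at 149 of 150 bases, and each holds its GAANNTTC match from 104 bases before the start. In Dusp5 a pair of CArG boxes lie side by side without overlap.

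The 2 macrophage classes differed in 10 immediate early genes, against 18.6% of all genes, and in none of the heat shock genes by the adjusted test. In Lyve1- against Lyve1+ macrophages, 4 genes were higher (Dusp2, Rgs1, Dusp5 and Btg1), against 10% of all genes, and 6 lower (Klf2, Klf4, Jund, Zfp36l1, Ier3 and Atf4), against 8.6%. Rgs1, which dampens chemokine receptor signals, had 393, 250 and 322 CPM in Lyve1- and 187, 58.7 and 53.9 CPM in Lyve1+ macrophages in replicates 1, 2 and 3, with no overlap (2.08 ± 0.24 SE, edgeR adjusted p = 2.51e-06). Dusp2 was higher by 1.93 ± 0.19 (edgeR adjusted p = 4.08e-07). Klf2 was lower by a log2 fold change of -1.35 ± 0.23 (edgeR adjusted p = 0.000228), and Klf4, a factor of tissue macrophages, averaged 264 ± 131 CPM in Lyve1- and 538 ± 109 CPM in Lyve1+ macrophages (SD, n = 3 each). Of the heat shock genes 0 of 12 passed with edgeR and 0 of 12 with DESeq2, and 1, Hspa8, had an unadjusted p under 0.05 with edgeR (0.042), against 30.1% of all genes, as did 1 with DESeq2, against 24.2%. The count of 10 rested partly on single libraries: it was 6 without replicate 1 and 6 without replicate 3, and 4 without the library block. Jund was 1 of the genes that lost the call, with -0.69 ± 0.23 over all libraries and -0.31 (adjusted p = 0.24) without replicate 1. Against the mean of all other classes, 30 of 38 genes differed in Lyve1+ macrophages, against 46.1% of all genes, and 8 were higher (against 18.3%) and 9 lower (against 7.05%) in Lyve1- macrophages. The median depths of these classes differed most in replicate 2, and with every cell thinned to 1000 UMIs the count was 9. Cells were gated and split by Lyve1 before thinning, so that count cannot show whether shallow cells were placed in the wrong class. Markers of cDC2 summed to 708, 879 and 491 CPM in Lyve1- and 289, 354 and 130 CPM in Lyve1+ macrophages, and Dusp2, Dusp5 and Btg1 were also called higher in cDC2, so the part of cDC2 RNA in these 3 genes was not tested.

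Lymphocytes of the T or NK gate had less of both groups than ILC2. With at least 10 cells in a library, all 26 immediate early and all 12 heat shock genes differed between the classes of that fit, against 72.5% of all genes. In it 1 gene was higher in T or NK cells than in ILC2 (against 2.16% of all 10931 genes) and 25 were lower (against 4.68%). The lower ones were 18 immediate early and 7 heat shock genes, and the median over all genes was -0.26. In either direction that is 26 of 38, against 6.84%. Against the mean of the other classes 3 genes were higher in T or NK cells (against 8.04%) and 25 lower (against 6.16%). The higher one was Dusp2 (log2 fold change 4.76 ± 0.51 SE, edgeR adjusted p = 1.28e-09). Fos had 170, 166 and 151 CPM in T or NK cells in replicates 1, 2 and 3, against 909, 712 and 855 CPM in ILC2, without overlap (-2.81 ± 0.31 SE, edgeR adjusted p = 3.34e-09). Dnajb1 had 224, 361 and 242 CPM in T or NK cells, against 902, 1030 and 1688 CPM in ILC2 (-2.44 ± 0.37 SE, edgeR adjusted p = 4.59e-06). These profiles hold 11 to 21 cells, and the ILC2 markers still summed to 379 to 905 CPM in them.

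Fibroblasts, which a CD45+ sort should remove, were gated by collagen and decorin RNA (34350 to 38030 CPM over 7 markers). In them 3 immediate early genes were higher than the mean of the other classes (against 25.1% of all genes) and 14 lower (against 13.4%), and 1 heat shock gene was higher and 10 lower. Egr1 had 2076, 821 and 438 CPM in fibroblasts in replicates 1, 2 and 3, the highest of these classes within each library (2.99 ± 0.25 SE, edgeR adjusted p = 6.72e-14), and Hspb1 had 199, 829 and 1323 CPM (2.98 ± 0.30). In mast cells 8 of 12 heat shock genes were higher than the mean of the other classes and 0 lower, against 3.86% of all genes higher, where the median over all genes was -0.61. Of the immediate early genes 4 were higher and 3 lower (against 2.24% of all genes lower), which makes 15 of 38 in either direction, against 6.1%. Jun had 1990 and 7138 CPM in mast cells in replicates 2 and 3, and Ier3 had 2412 and 618 CPM. The 2 mast cell profiles held 21 and 18 cells with medians of 1856 and 3116 UMIs, and ILC2 markers summed to 2623 and 1716 CPM in them.

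Within classes, the immediate early sum was compared between strata of depth that were chosen after values were seen, and its direction was not the same in all. In Lyve1- macrophages of replicate 1, cells with 1000 to 4000 UMIs had 33148 CPM and those with at least 8000 UMIs 18895 CPM, with median mitochondrial shares of 6.57% and 2.80%. In Lyve1- macrophages of replicate 3 the values were 16447 and 11861 CPM, and in ILC2 of replicate 3 they were 20405 and 14382 CPM. The shallow cells were also higher in Lyve1- macrophages (15186 and 12025 CPM) and ILC2 (19038 and 17939 CPM) of replicate 2. The same held in Lyve1+ macrophages of replicates 1 (36442 and 26271 CPM) and 3 (19675 and 16134 CPM). Shallow cells were lower only in Lyve1+ macrophages of replicate 2 (14848 and 16230 CPM) and cDC2 of replicate 3 (10847 and 12955 CPM). Among cells with at least 8000 UMIs the highest library was the same as in the sums of all cells, replicate 1 for the immediate early and replicate 3 for the heat shock genes, in ILC2, cDC2 and both macrophage classes, while the 2 other libraries changed places in some. Lyve1+ macrophages had 26271, 16230 and 16134 immediate early CPM and 24306, 27839 and 37702 heat shock CPM in replicates 1, 2 and 3. In cells thinned to 1000 UMIs, the median Lyve1+ macrophage held 35, 15 and 16 immediate early UMIs and 15.5, 23 and 30 heat shock UMIs in replicates 1, 2 and 3. Thinned ILC2 held 20.5, 18 and 16 immediate early and 14.5, 11 and 22 heat shock UMIs. Across the cells of 1 class and library, Spearman's rho between the 2 sums was 0.23 to 0.64, a description over cells that share a library and free RNA.

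Other genes of these pathways were read from fixed lists. Of 31 other immediate early and feedback genes, 29 were tested and 27 differed between classes, against 67.9% of all genes. In ILC2 against macrophages 13 were higher, against 26.3% of all genes, and 11 lower, against 30.6%. Gadd45b, a stress-response gene that activates MAP kinase signals, had 1867, 3649 and 1753 CPM in ILC2, against 594, 711 and 501 CPM in Lyve1- and 454, 476 and 245 CPM in Lyve1+ macrophages (2.49 ± 0.17 SE, edgeR adjusted p = 3.65e-11). The nuclear receptor gene Nr4a3 was also higher in ILC2 (2.82 ± 0.17), and the myeloid factor gene Cebpb was lower (-2.28 ± 0.19). Of 32 other chaperones and heat shock regulators, 30 were tested and 22 differed between classes, a share near the 67.9% of all genes. In ILC2 against macrophages 9 were higher, near the 26.3% of all genes, and 5 lower, against 30.6%. Dnaja4, an Hsp40, averaged 111 ± 43.4 CPM in ILC2, against 7.10 ± 5.87 CPM in Lyve1- and 12.5 ± 3.89 CPM in Lyve1+ macrophages (SD, n = 3 each). The co-chaperone gene Bag3 was lower in ILC2 (-3.28 ± 0.31), as was Sdf2l1, of the endoplasmic reticulum (-1.29 ± 0.25). Of 7 metallothionein and oxidative stress genes, 0 were higher in ILC2 than in macrophages, against 26.3% of all genes, and 6 lower, against 30.6%. Hmox1, the haem-degrading enzyme, averaged 4.40 ± 3.29 CPM in ILC2, against 443 ± 66.8 CPM in Lyve1- and 949 ± 55.1 CPM in Lyve1+ macrophages (SD, n = 3 each). Mt1 and Mt2, which bind zinc and copper, were lower in ILC2 by log2 fold changes of -5.78 ± 0.28 and -4.63 ± 0.45.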

How the data were processed

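The deposited files hold whole-number UMI counts per gene and barcode. The authors made these counts with Cell Ranger 3.1 against mm10, per the submitters' processing notes. The file headers name versions 3.0.0, 3.1.0 and 3.1.0. The 38 genes and all lists were chosen with earlier results of these data known.

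Cells with at least 1000 UMIs and at most 15% mitochondrial UMIs were kept. A cell was gated to the marker class with the largest share of its markers detected, with at least 3 markers and a margin of 10 percentage points. These 2 limits were picked among 4 combinations, judged on markers and class sizes before values of the 38 genes were viewed. Macrophages were split by 1 UMI of Lyve1. Doublets were kept, and removed in an alternative.

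Counts were summed per class and library (at least 20 cells) and fitted with edgeR 4.0.16 in R 4.3.3: filterByExpr, TMM, a quasi-likelihood F test with class and library, and Benjamini-Hochberg adjustment over 9868 genes, with a threshold of 0.05. SEs were computed from the fold change and F. Each library gives several classes, so the library is the replicate block by design. The block is incomplete: 5 classes gave 14 profiles, because cDC1 of replicate 1 had 6 cells. The fit of T or NK cells, fibroblasts and mast cells, with at least 10 cells, the depth strata, the per-cell summaries and the counts of genes highest or lowest in a library were chosen after values were seen. The 5 motifs were searched in RefSeq promoters, and gene positions came from GENCODE M21. Scripts were tested on simulated data. Of 18 alternatives 16 were planned and 2 added, with DESeq2 1.42.0 among them.

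Values in every library are given, in each of the 2 groups, for the 6 genes with the highest mean CPM, the 5 with the highest and the 3 with the lowest ratio of class to library mean square, and Hspa1a and Hspa1b, plus the 3 genes of each other list with the largest class F. Other genes named with such values were chosen after their values were seen. Depth per library was 6777422, 13336484 and 11017170 UMIs. Monocytes were too few (5, 8 and 2 cells) for their comparison with Lyve1- macrophages.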

Additional observations from a re-analysis of the deposited data

Results flagged for a closer look

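Barcodes outside the cell filters also held counts of both groups, above the limit that a count of 0 allows. In barcodes over the mitochondrial limit (349, 489 and 671 in replicates 1, 2 and 3) the immediate early sum was 3253, 3066 and 2134 CPM, against 20560, 13586 and 14406 CPM in kept barcodes. The heat shock sum there was 2443, 4477 and 3631 CPM, against 17376, 22322 and 34131 CPM in kept barcodes. These CPM divide by all UMIs, mitochondrial ones included, so both sums are lowered in barcodes selected for a high mitochondrial share. How much of the difference is left without mitochondrial UMIs was not tested. In barcodes under the UMI minimum but within the mitochondrial limit (10, 658 and 128) the immediate early sum was 22764, 14672 and 14356 CPM, and the heat shock sum was 19194, 26323 and 30965 CPM. In both sets the immediate early sum was highest in replicate 1, as in kept barcodes. The heat shock sum was highest in replicate 3 in kept barcodes and in those under the UMI minimum, and in replicate 2 in those over the mitochondrial limit. What they contain was not tested.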

How the results depend on the processing

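Of the counts and sums behind the comparisons, 280 of the values under alternatives kept their direction and stayed within the limits of change set for them, and 10 did not. Without the replicate block, 2 heat shock genes differed between classes (10 with it). The same fit called 4 genes between Lyve1- and Lyve1+ macrophages (10), 15 in Lyve1+ macrophages against the mean of the other classes (30), 7 in Lyve1- macrophages (17), 7 in cDC1 (16) and 6 in cDC2 (16). Spread between libraries enters the error of that fit by construction. Without a filter on low counts, 26 genes were called in Lyve1- macrophages against the mean of the other classes (17), and the cause was not tested. Leaving out 1 replicate gave 6 to 12 calls between Lyve1- and Lyve1+ macrophages, with 6 without replicate 1 and 6 without replicate 3, and 3 to 9 heat shock genes with a class mean square above that of library, with 9 without replicate 3. With fewer samples both are less certain. For single genes, 1194 values kept their call, 73 lost it and 13 gained it, and none reversed. Of 34 gene and comparison pairs not called, 0 to 7 were called under an alternative, none in the opposite direction. DESeq2 size factors moved the median of all genes by less than 0.05 on the log2 scale. Classes of 11 to 21 cells and 2 mast cell profiles limit what their comparisons can show.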
